A study of Mus musculus with 4 samples.

Results

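Tmem132d, Slc9a9, Col23a1, Kcnq5 and Clstn2, 5 of the 32285 genes counted, were followed across the cell classes of the mouse lung. They were picked from results of these same mice because their difference between genotypes did not look alike in all classes. Every genotype value given for them is therefore a description without a test. What was tested is another contrast, the level of each gene in a class against its level in the RNA that floats free between nuclei.

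The data are single-nucleus RNA-Seq of lung from 2 WT and 2 VEcad-TRF2DN-Tg males (WT and Tg below). The study's methods give 8 to 9 weeks as the age of the mice it regularly used. All 4, WT included, had been exposed to chronic hypoxia, and their age after it is not given. The transgene encodes a dominant-negative TRF2, a protein that guards telomeres, and the VE-cadherin promoter directs it to endothelial cells (ECs) and not to the other classes. The transgene itself was not analysed here. Each library is 1 mouse, and the sequencing gave 125261739 to 182014706 UMIs (unique molecular identifiers, 1 for each captured transcript) a mouse.

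RNA from broken cells enters every droplet, so a gene can be counted in a class that does not make it. Barcodes of 300 to 800 UMIs were taken as empty droplets, 2732 to 18387 a mouse, and their sum gives the free RNA. A barcode of at least 1500 UMIs was given a class where the UMIs of the class markers were at least 2-fold over free RNA and at least 3 markers were seen. With the planned marker lists this named 4696 and 5315 nuclei in WT and 10032 and 11071 in Tg, of which libraries shared 9 to 34 barcodes, at most 0.339% of the smaller one. None of the 5 genes is a marker. Another 14378 to 32700 barcodes a mouse had no planned class. Smooth muscle, with 4 and 1 nuclei in WT and 10 and 11 in Tg, was too small to compare. The 14 classes with at least 10 nuclei in each mouse were kept. One of them, club-like, was added after the data were seen, since the full list of club markers found 1 nucleus in the first WT mouse and 1 in the first Tg mouse but 239 in the second WT mouse. It was called on the club markers without the 2 that dominate free RNA, and held 85 and 172 nuclei in WT and 251 and 370 in Tg, of which 84, 80, 251 and 363 came from the barcodes with no planned class and the rest from the first club class. Just under the depth limit, classed nuclei of at least 1000 and under 1500 UMIs had 267, 253, 212 and 125 CPM of Tmem132d, and those up to 500 UMIs above that limit had 357, 268, 321 and 210. Slc9a9, Col23a1 and Clstn2 were lower under the limit in 3 of 4 mice, and Kcnq5 in 2, with 306 CPM under it against 211 above in the second WT mouse and 195 against 157 in the first Tg mouse. Of the classed nuclei, 15.7% to 23.6% of alveolar type 2 nuclei and 4.05% to 12.7% of pericytes, depending on the mouse, passed the class limit on the Poisson p by less than 10-fold. In fibroblasts these were 29 of 217 and 58 of 215 nuclei in WT against 81 of 216 and 65 of 202 in Tg, and in alveolar macrophages 12.9% and 14.5% in WT against 35.3% and 13.6%. Levels are CPM, the UMIs of a gene among 1e6 UMIs of the class in 1 mouse.

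The 5 genes come from unrelated families. Tmem132d encodes a single-pass membrane protein known mainly from the nervous system. Slc9a9 encodes the sodium-proton exchanger NHE9, which sets the pH of endosomes. Col23a1 encodes a membrane-spanning collagen. Kcnq5 encodes a subunit of voltage-gated potassium channels that steady the resting potential of neurons and vascular muscle. Clstn2 encodes calsyntenin-2, a cadherin-related protein of synapses. They share one feature that was not used to pick them, which is length. On GRCm38, Tmem132d spans 651 kb of chromosome 5 (127781630 to 128433077, minus strand) and Slc9a9 561 kb of chromosome 9 (94669909 to 95230445, plus strand). Col23a1 spans 294 kb of chromosome 11 (51289920 to 51583918, plus strand), Kcnq5 564 kb of chromosome 1 (21398403 to 21961942, minus strand) and Clstn2 589 kb of chromosome 9 (97444395 to 98033181, minus strand). Intronic reads were counted, so UMIs could come from anywhere in these spans.

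Kcnq5 and Clstn2 both had their highest level in pericytes, and for that reason the 250 bases before their RefSeq start sites (GRCm38.p6, 5′ to 3′ on the minus strand) are shown, with a searched motif in capitals.
Kcnq5, chr1:21961943-21962192: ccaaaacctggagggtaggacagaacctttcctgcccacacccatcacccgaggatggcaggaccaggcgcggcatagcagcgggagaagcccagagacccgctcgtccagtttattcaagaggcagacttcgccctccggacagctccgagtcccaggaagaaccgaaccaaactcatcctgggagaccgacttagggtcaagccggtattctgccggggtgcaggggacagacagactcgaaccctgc
Clstn2, chr9:98033168-98033417: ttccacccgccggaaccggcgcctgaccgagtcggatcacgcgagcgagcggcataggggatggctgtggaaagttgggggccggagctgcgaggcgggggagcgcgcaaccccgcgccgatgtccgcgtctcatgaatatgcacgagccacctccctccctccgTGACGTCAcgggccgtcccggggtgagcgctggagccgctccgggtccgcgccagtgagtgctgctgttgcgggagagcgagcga
The motifs searched on both strands were the RBPJ core TGGGAA, the GC box GGGCGG, the TATA box TATAAA and the cyclic AMP response element TGACGTCA, which occur in 21.6%, 32.7%, 12.4% and 1.55% of 32851 RefSeq promoter windows. The Clstn2 window held the last one once and none of the others, and the Kcnq5 window shown held none. That Kcnq5 window is the one that adjoins the annotated span of the gene, and any other RefSeq start of Kcnq5 was left out. RefSeq promoters were matched for 4 of the 5 genes.

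Each gene stood above free RNA in its own set of classes. Of 70 pairs of gene and class, 26 were above free RNA, 11 were below it and 33 were not called (edgeR quasi-likelihood test with a term for each mouse, Benjamini-Hochberg adjusted p under 0.05). Over all genes and classes together, 29.1% were below free RNA. Of all genes tested, 21.8% were above free RNA in blood ECs, 18.7% in lymphatic ECs, 10.7% in pericytes, 22.9% in fibroblasts and 25.6% in mesothelial nuclei. In epithelium the share was 26.5% for alveolar type 1, 27.2% for alveolar type 2, 25.4% for club-like and 29.7% for ciliated nuclei. In leukocytes it was 28.2% for alveolar macrophages, 13.4% for monocytes and interstitial macrophages, 15% for dendritic cells, 17.7% for T and NK cells and 15.9% for B cells. Of the 26 calls above it, 14 held under every setting tried, and in 20 all 4 mice were above their own free RNA. The test pools genotypes whose free RNA differed: in 17 of the 33 pairs that were not called, both WT mice were below free RNA and both Tg mice above it. Genes over 200 kb had a median log2 difference from free RNA of 0.19 in alveolar type 2 nuclei, 0.52 in pericytes and 0.89 in fibroblasts, against -0.13, -0.15 and -0.13 for all genes. In alveolar macrophages, where 4 of the 5 genes were called below free RNA, their median was -0.48 against -0.12.

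**Figure D1:**
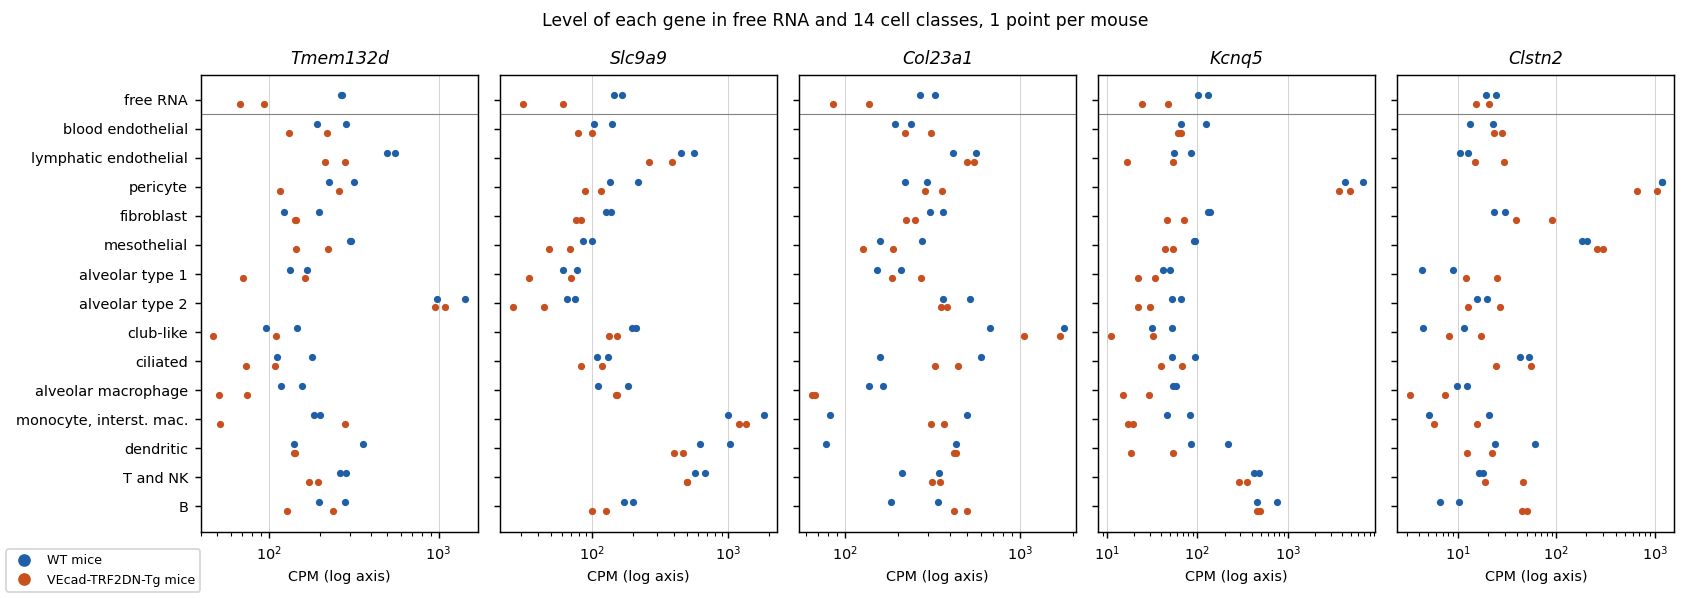
CPM on a log axis of each gene in free RNA and in 14 cell classes, 1 point per mouse, WT in blue and VEcad-TRF2DN-Tg in orange. Kcnq5 and Clstn2 are highest in pericytes, Tmem132d in alveolar type 2 nuclei, Slc9a9 in monocytes and interstitial macrophages, and Col23a1 in club-like nuclei.

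Blood ECs were the class where none of the 5 genes was called against free RNA. The log2 differences were 0.42 for Tmem132d (edgeR adjusted p = 0.127), 0.29 for Slc9a9 (0.271), 0.39 for Col23a1 (0.221), 0.24 for Kcnq5 (0.348) and 0.11 for Clstn2 (0.674). In lymphatic ECs Tmem132d, Slc9a9 and Col23a1 were called, and all 3 held under every setting. Genes over 200 kb had a median log2 difference from free RNA of 0.56 in blood ECs (quartiles 0.09 to 1.04) and 0.72 in lymphatic ECs (0.07 to 1.33). In blood ECs all 5 genes lay within these quartiles and below the median. In lymphatic ECs Tmem132d (1.20) lay within them, and Slc9a9 (2.19) and Col23a1 (1.40) above. The difference between the EC classes was not itself tested, nor was which of them carried the transgene. In blood ECs the genotypes lay on opposite sides of free RNA for 3 of the genes. Col23a1 had 195 and 240 CPM in WT, below the 267 and 327 of free RNA, and 222 and 311 in Tg, above 85.4 and 137. Slc9a9 had 103 and 139 in WT against 145 and 166, and 78.5 and 99.4 in Tg against 31.1 and 61.1. Kcnq5 had 66.8 and 124 in WT against 103 and 133, and 61.4 and 66.4 in Tg against 24.4 and 47.7. Tmem132d had 192 and 284 in WT against 272 and 266, and 133 and 221 in Tg against 67.8 and 93.9. For Tmem132d and Clstn2 both Tg mice and 1 of the WT mice were above free RNA. The part of the lower free RNA of Tg in these differences was not tested.

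Tmem132d was highest in alveolar type 2 cells, which secrete surfactant. It had 973 and 1439 CPM there in WT and 956 and 1087 in Tg, while free RNA held 272, 266, 67.8 and 93.9 in the same order of mice. All values of the class lay above those of free RNA, by 3.04 ± 0.30 on the log2 scale (SE, edgeR adjusted p = 2.03e-05). Nuclei with at least 10 Tmem132d UMIs gave 59.9% of its UMIs in the second WT mouse, the most deeply covered of the 4 in this class, and without them the mice had 862, 924, 894 and 916 CPM, which is lower by construction. After each nucleus was thinned to 1500 UMIs, 69.6% and 77.2% of alveolar type 2 nuclei in WT and 67.9% and 73.1% in Tg had a Tmem132d UMI. Alveolar macrophages, where the gene was below free RNA (log2 -0.65 ± 0.17, edgeR adjusted p = 0.00315), had one in 6.69% to 19.4%, and their median depth before thinning was 2797 to 5130 UMIs against 2585 to 4687. Lymphatic ECs came second with 551 and 500 CPM in WT and 216 and 282 in Tg, above free RNA by 1.20 ± 0.18 (edgeR adjusted p = 5.63e-05). From lymphatic ECs down, each class overlapped with the next in the order of levels. Over 56 sums of class and mouse, which share libraries and free RNA, the patterns most like it were those of Bmp1 (Pearson r = 0.896), Epha7 (0.891) and Prmt8 (0.883).

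Slc9a9 was highest in 3 of the leukocyte classes. In monocytes and interstitial macrophages it had 1865 and 1005 CPM in WT and 1215 and 1359 in Tg, and free RNA held 145, 166, 31.1 and 61.1. The difference was 3.85 ± 0.27 on the log2 scale (edgeR adjusted p = 4.08e-22), on 21 to 62 nuclei a mouse. Of these nuclei, thinned, 73.5% to 77.4% had a UMI, against 2.94% to 10.8% of alveolar type 2 nuclei, where Slc9a9 was below free RNA. Dendritic cells followed with 1044 and 624 CPM in WT and 398 and 472 in Tg (log2 2.69 ± 0.23, edgeR adjusted p = 1.47e-12), then T and NK cells with 575, 685, 500 and 497 (2.64 ± 0.25, edgeR adjusted p = 1.78e-06). Lymphatic ECs came next with 564, 449, 264 and 385 CPM (2.19 ± 0.22, edgeR adjusted p = 1.2e-06). Neighbours among these 4 classes overlapped, and lymphatic ECs did not overlap with club-like nuclei below them. B cells, with 170 and 202 CPM in WT and 101 and 126 in Tg, and alveolar macrophages, with 111, 182, 152 and 149, came below lymphatic ECs and overlapped with club-like nuclei. The difference of alveolar macrophages from free RNA, 0.86 ± 0.28 (edgeR adjusted p = 0.0117), was not called without the first Tg mouse (0.26) or without the second (0.71). The call in pericytes (0.61 ± 0.23, edgeR adjusted p = 0.0472) was lost under 7 of 13 alternatives. The most similar patterns were those of Nfatc2 (r = 0.854), Epsti1 (0.842) and Iqgap2 (0.837).

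Col23a1 was highest in club-like nuclei, named after secretory cells of the airway. These nuclei held only 3.42% to 8.78% of the UMIs of their 5 markers in barcodes of at least 1500 UMIs, and barcodes with no class held 62.3% to 79.9%. Free RNA also holds these markers, at 374 to 869 CPM, and its part in the barcodes with no class was not tested. What part of the club nuclei the class covers is therefore not known. Col23a1 had 669 and 1767 CPM in WT and 1058 and 1679 in Tg, and free RNA held 267, 327, 85.4 and 137. Mice of the same genotype lay further apart than the genotype means. The class was above free RNA by 2.78 ± 0.32 on the log2 scale (edgeR adjusted p = 3.85e-06). Lymphatic ECs (1.40 ± 0.26, edgeR adjusted p = 0.000418) and alveolar type 2 nuclei (1.29 ± 0.24, edgeR adjusted p = 0.00067) were also above it under every setting. Fibroblasts (log2 0.68), dendritic cells (0.74), B cells (0.83) and ciliated nuclei were called as well, and each of these calls was lost under at least 2 alternatives. Ciliated nuclei spread widely, with 160 and 601 CPM in WT and 327 and 444 in Tg. In alveolar macrophages Col23a1 was below free RNA (-0.74 ± 0.17, edgeR adjusted p = 0.00111). The most similar patterns were those of Aox3 (r = 0.814), Kcnk2 (0.805) and Aox1 (0.800).

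Kcnq5 set pericytes, the mural cells of capillaries, apart from every other class that was kept, and smooth muscle was not among those. It had 4291 and 6703 CPM there in WT and 3715 and 4888 in Tg, and free RNA held 103, 133, 24.4 and 47.7. The log2 difference of 6.16 ± 0.32 (edgeR adjusted p = 2.08e-22) was the largest of the 70, on 44 to 110 nuclei a mouse. Of pericyte nuclei thinned to 1500 UMIs, 77.0% to 93.2% had a UMI, against 1.20% to 6.40% of club-like nuclei, where the gene was below free RNA, though these were the deeper nuclei (medians of 3603 to 7622 UMIs against 2400 to 3355). B cells had 452, 766, 499 and 455 CPM (log2 2.90 ± 0.23, edgeR adjusted p = 7.97e-10), and T and NK cells 425, 479, 358 and 287 (2.46 ± 0.24, edgeR adjusted p = 1.89e-06). The lymphocyte classes overlapped with each other and with neither pericytes above nor fibroblasts below. The call in fibroblasts (0.48 ± 0.16, edgeR adjusted p = 0.0227) was lost under 8 of 13 alternatives. The most similar patterns were those of Lef1 (r = 0.859), a transcription factor of the Wnt pathway, Adcy8 (0.785) and Aff2 (0.778).

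Clstn2 shared the pericyte peak and had a second one in the mesothelium, the cell sheet that covers the lung. Pericytes had 1177 and 1180 CPM in WT and 654 and 1043 in Tg, and free RNA held 24.5, 19.5, 15.3 and 20.5. The log2 difference was 5.57 ± 0.26 (edgeR adjusted p = 3.37e-24). Thinned, 54.1% to 67.3% of pericyte nuclei had a Clstn2 UMI, against 0 to 2.70% of alveolar macrophages, whose 0 was 0 of 81 nuclei in the second Tg mouse (exact binomial upper limit 4.45%, for counting error only). Mesothelial nuclei had 181 and 206 CPM in WT and 260 and 296 in Tg (log2 3.61 ± 0.19, edgeR adjusted p = 9.69e-13). Neither class overlapped with the next below it. Ciliated nuclei (1.11 ± 0.20) and fibroblasts were called too, except with the fewest empty droplets. Art3 (r = 0.905), Aff2 (0.893) and Gucy1a1 (0.888) had the most similar patterns, and Gucy1a1, a subunit of the nitric oxide receptor, is one of the markers by which pericytes were named.

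**Figure D2:**
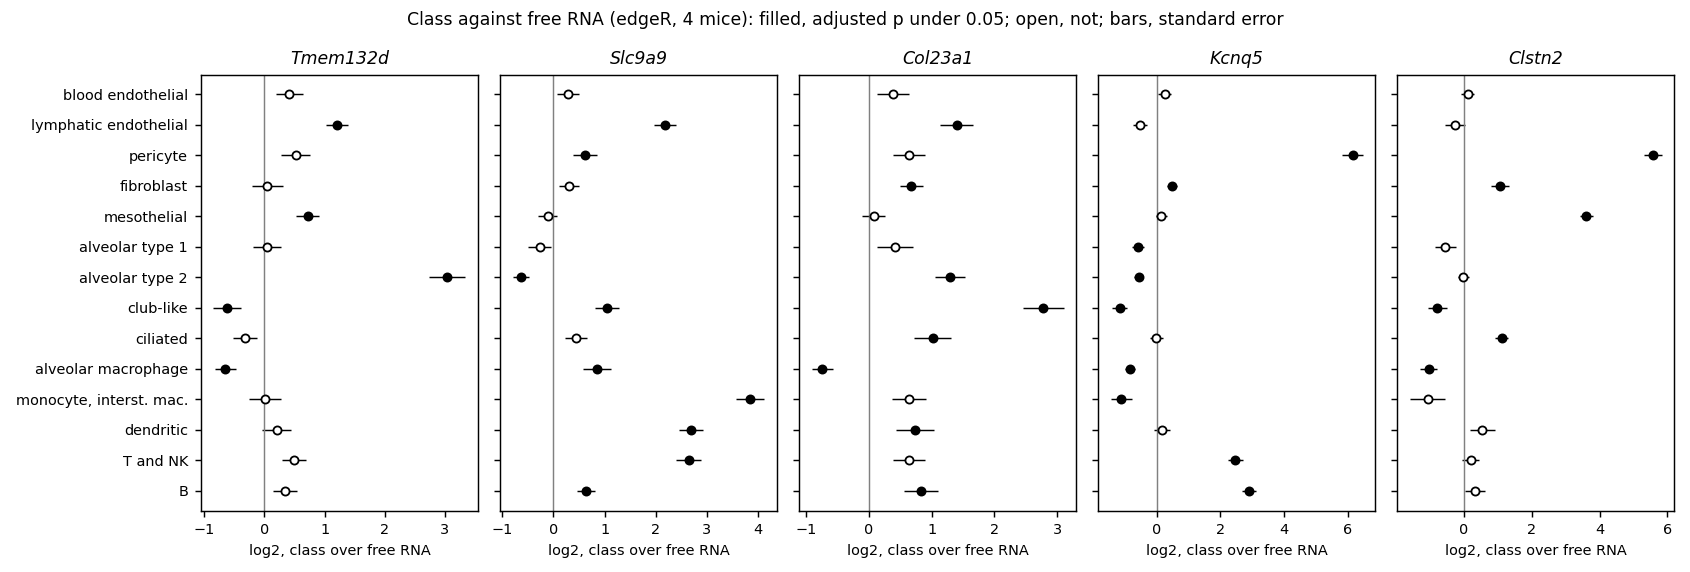
Log2 difference between each class and the free RNA of the same 4 mice, with its standard error, for each gene. Filled points have an edgeR adjusted p under 0.05 and open points do not, and no point of blood ECs is filled. Each point pools both genotypes, which for Slc9a9, Col23a1 and Kcnq5 in blood ECs lay on opposite sides of free RNA.

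The level of free RNA itself differed by genotype for 4 of the 5 genes. The log2 difference of Tg over WT was -1.52 ± 0.24 for Tmem132d, -1.58 ± 0.29 for Slc9a9, -1.21 ± 0.27 for Col23a1 and -1.54 ± 0.30 for Kcnq5. The genotypes did not overlap for these 4 genes, and 41.6% of all genes were lower in Tg without overlap. Of the 883 genes over 200 kb, as all 5 are, 786 were lower in Tg without overlap. Clstn2 was at -0.07 ± 0.27, and its genotypes overlapped. The 883 genes longer than 200 kb had a median of -1.20 there, 6617 genes under 20 kb one of 0.66, and all 15180 genes tested one of 0.04. Of all genes, 25.6% were called by genotype in free RNA, and none was without the first Tg mouse in edgeR (3228 at an unadjusted p under 0.05). DESeq2 called 3710 with all mice.

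In the 14 classes, taken whole and not by subclass, Tmem132d, Slc9a9 and Kcnq5 were lower in Tg wherever the genotypes did not overlap. That was so in 5 of 14 classes for Tmem132d, 10 for Slc9a9 and 10 for Kcnq5, of which 1, the monocytes, was below the filter on low counts. Over all genes and classes, 26.4% were lower in Tg without overlap. Among genes over 200 kb, as all 5 are, that share was 54.7% (5639 of 10313 pairs of gene and class), and their median log2 difference lay between -0.67 in alveolar macrophages and -0.21 in pericytes. A lower level in Tg was thus common among long genes. Where these genes were highest, the genotypes overlapped. The differences were -0.24 ± 0.22 for Tmem132d in alveolar type 2 nuclei, -0.04 ± 0.35 for Slc9a9 in monocytes and interstitial macrophages and -0.23 ± 0.32 for Kcnq5 in pericytes.

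In alveolar macrophages, where both were below free RNA, Tmem132d was at -1.23 ± 0.27 and Kcnq5 at -1.56 ± 0.35. Free RNA was then subtracted from each class sum, its share estimated from genes the class was taken not to make, at 15.5% to 60.7% in WT and 23.1% to 35.2% in Tg. The values became -0.28 ± 0.50 for Tmem132d and -0.44 ± 0.63 for Kcnq5. In blood ECs, Tmem132d went from -0.46 ± 0.27 to -0.03 ± 0.42, Slc9a9 from -0.47 ± 0.20 to 0.11 ± 0.27 and Kcnq5 from -0.60 ± 0.26 to -0.10 ± 0.45. Before the subtraction all 3 lay within the quartiles of the genes over 200 kb in blood ECs (-0.66 to -0.21, median -0.45). Slc9a9 went from -1.01 ± 0.24 to -0.39 ± 0.27 in alveolar type 2 nuclei and from -0.64 ± 0.22 to 0.07 ± 0.28 in mesothelial nuclei. In lymphatic ECs, Tmem132d stayed at -1.03 ± 0.22 before and -1.05 ± 0.23 after. Kcnq5 in fibroblasts, at -1.18 ± 0.24 and -1.10 ± 0.26, also moved little. In dendritic cells Kcnq5 had 86.3 and 219 CPM in WT and 18.7 and 53.4 in Tg, on only 11, 73, 3 and 31 UMIs. Its difference of -1.85 ± 0.45, and -1.99 ± 0.66 after the subtraction, was -0.94 ± 0.77 without the second WT mouse and -2.91 ± 0.70 without the second Tg mouse. Other differences grew: Kcnq5 went from -0.23 to -0.54 ± 0.29 in pericytes and from -0.49 ± 0.20 to -0.85 ± 0.20 in T and NK cells, and Slc9a9 from -0.34 ± 0.18 to -0.69 ± 0.18 in T and NK cells. In pericytes the subtraction took Kcnq5 from 605, 1624, 795 and 2216 UMIs to 598, 1609, 793 and 2209. The estimated share of free RNA there was 45.4% and 47.1% in WT against 32.1% and 30.5% in Tg. The pericyte value thus grew mainly because the class sums shrank more in WT. The part of the class sums in the T and NK values was not tested. The SEs after subtraction leave out the error of the estimated share. The make-up of the fibroblast class differed by genotype. Fibroblasts with Chl1, Kif26b and Agtr1b, which had 92.9 and 310 CPM of Kcnq5 in WT and 84.7 and 176 in Tg on 17, 89, 1 and 12 UMIs, numbered 37 and 34 nuclei in WT against 3 and 10 in Tg. In alveolar fibroblasts Kcnq5 had 117 and 75.4 CPM in WT and 13.2 and 81.7 in Tg, on 68, 36, 4 and 25 UMIs, which overlap. The part of this make-up in the difference was not tested. The shares of thinned lymphatic EC nuclei with a Tmem132d UMI were 39.2% and 45.6% in WT against 21.6% and 23.3% in Tg.

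Clstn2 was higher in Tg without overlap in 7 classes, lower without overlap in 3 and overlapping in 4, where 29.8% of all genes and classes were higher without overlap. The share lower without overlap was 26.4%. Among genes over 200 kb, 7.17% were higher (739 of 10313 pairs of gene and class) and 54.7% lower. It passed the filter on low counts in 11 of the 14. Lymphatic ECs, counted as higher, and dendritic cells, counted as lower, did not pass, while the shares cover only pairs that did. In pericytes it was at -0.34 ± 0.27 as counted and -0.66 ± 0.26 after free RNA was subtracted, and in mesothelial nuclei at 0.56 ± 0.18 and 0.31 ± 0.18. Its pericyte UMIs went from 166, 286, 140 and 473 to 164, 284, 139 and 470. The pericyte value thus also moved mainly with the class sums. In B cells its level went from 6.56 and 10.3 CPM in WT to 44.8 and 50.4 in Tg (2.30 ± 0.40), on 1, 22, 33 and 87 UMIs. The subtraction left 0, 4, 29 and 75 UMIs, so the fitted value of 4.23 ± 0.78 is set against WT counts near 0 and depends on the prior count. A single nucleus held 39.4% of those UMIs in the first Tg mouse, and without it, again left out by its own count, that mouse had 27.3 CPM.

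Values of the kind that chose the genes set the genotype difference in 1 class against that in the pooled UMIs of all other named classes. By size over error, Clstn2 in pericytes (-1.44 ± 0.19) was second of 17028 genes. The nearest gene inside was Slit3 (2.52 ± 0.33) and the nearest outside Fat3 (1.70 ± 0.31). Within pericytes alone the Clstn2 difference was -0.34 ± 0.27. The mix of classes enters the pool. Mesothelial nuclei, with more Clstn2 than any kept class but pericytes, numbered 155 and 313 in WT and 800 and 1249 in Tg. The part of this mix in the values was not tested. The best place of Tmem132d was 31 of 17461, in lymphatic ECs (-0.92 ± 0.19), between Slit3 and Adamtsl1. Kcnq5 was 30 of 17094 in dendritic cells (-1.50 ± 0.36), between Tnip3 and Pitpnc1. Col23a1 was 37 of 17406 in B cells (1.07 ± 0.26), between Slc4a5 and Thsd7a, and Slc9a9 was 124 of 17480 in alveolar type 2 nuclei (-0.58 ± 0.12), between Mast4 and Igf2r.

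**Figure D3:**
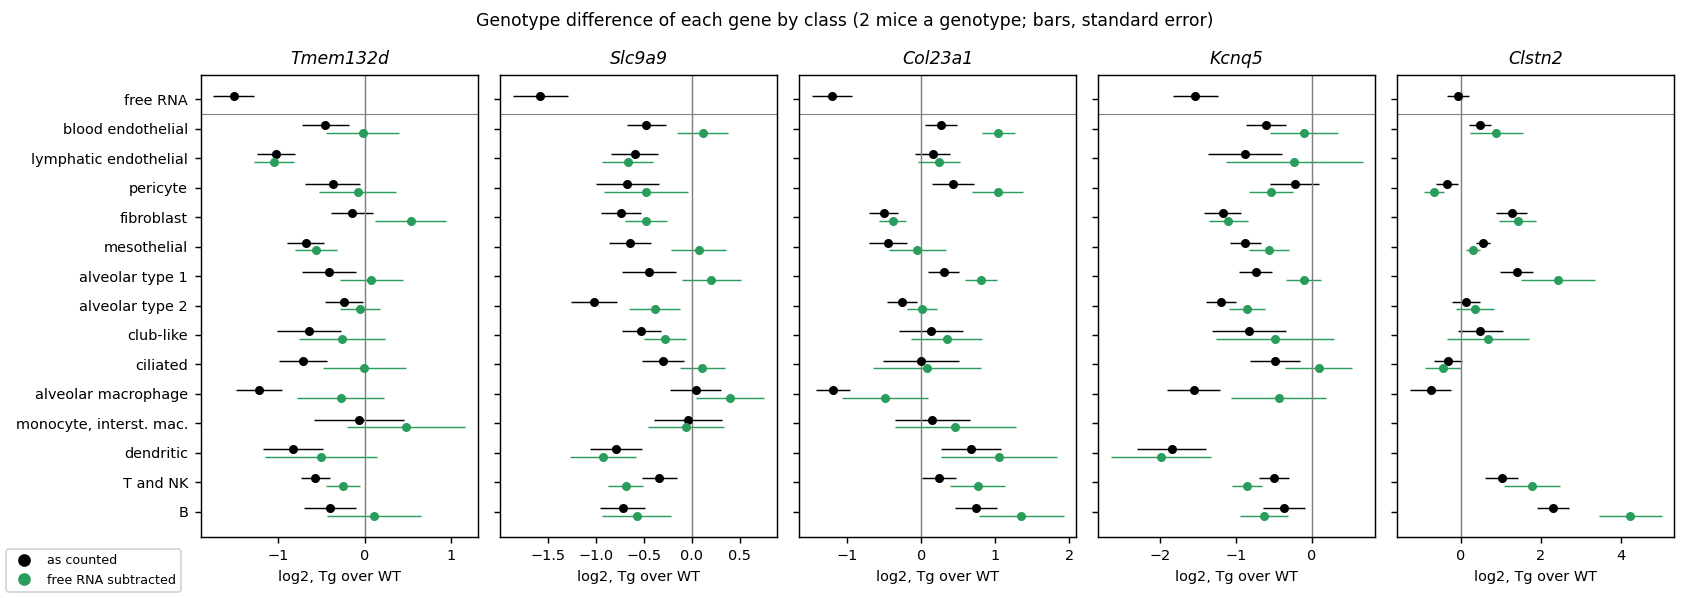
Log2 difference of Tg over WT in free RNA and in each class, with its standard error, as counted (black) and after subtraction of free RNA (green), where a gene passed the filter on low counts. Tmem132d, Slc9a9, Col23a1 and Kcnq5 lie between -1.21 and -1.58 in free RNA, and Clstn2 at -0.07.

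Col23a1 was lower in Tg without overlap in 2 of 14 classes, higher in 1 and overlapping in 11. Over all genes and classes, 26.4% were lower and 29.8% higher without overlap. Among genes over 200 kb these shares were 54.7% and 7.17%. It was lower in fibroblasts (-0.50 ± 0.20, and -0.39 ± 0.19 after free RNA was subtracted) and alveolar macrophages (-1.19 ± 0.23, and -0.49 ± 0.58), and higher in B cells (0.74 ± 0.29, and 1.35 ± 0.57). The subtraction also raised it in pericytes, from 0.43 ± 0.28 to 1.03 ± 0.34, and in alveolar type 1 nuclei, from 0.30 ± 0.21 to 0.81 ± 0.22.

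Col23a1 in blood ECs was 195 and 240 CPM in WT and 222 and 311 in Tg (log2 0.26 ± 0.21, and 1.04 ± 0.22 after free RNA was subtracted). The share of thinned nuclei with a UMI ran the other way, 23.1% and 29.4% in WT against 15.6% and 20.1% in Tg. Nuclei with at least 10 Col23a1 UMIs, a limit set after the data were seen, were 6 of 748 and 10 of 649 in WT and 17 of 1691 and 63 of 1940 in Tg. These shares, 0.80% and 1.54% in WT and 1.01% and 3.25% in Tg, overlap. They held 14.2% and 22.2% of the UMIs of the gene in WT and 22.3% and 46.6% in Tg. Without such nuclei the mice had 171, 193, 175 and 179 CPM, a value that is lower by construction, since the nuclei were left out by their own Col23a1 count. Of these nuclei, 83.3% and 80% in WT and 76.5% and 79.4% in Tg had at least 3 UMIs of club markers, the markers of the class with the highest Col23a1. Among the other blood ECs 15.2%, 7.36%, 5.14% and 7.19% had as many. That share rises with depth, and the Col23a1-rich nuclei were deeper, with medians of 4673 to 9697 UMIs against 2378 to 3343. Per UMI, club markers made up 622 and 588 CPM of them in WT and 800 and 640 in Tg, against 419, 238, 227 and 232 in the other blood ECs and 869, 467, 374 and 374 in free RNA. In the first WT mouse both kinds of nuclei were below free RNA. Nuclei that passed the planned marker list of a second lineage had been left out. For club cells that was the full list, which named 1 nucleus in the first WT mouse and 1 in the first Tg mouse. The shorter list behind the club-like class was not used to screen blood ECs. No doublet caller was run, and the part of droplets with more than 1 nucleus in these counts was not tested.

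**Figure D4:**
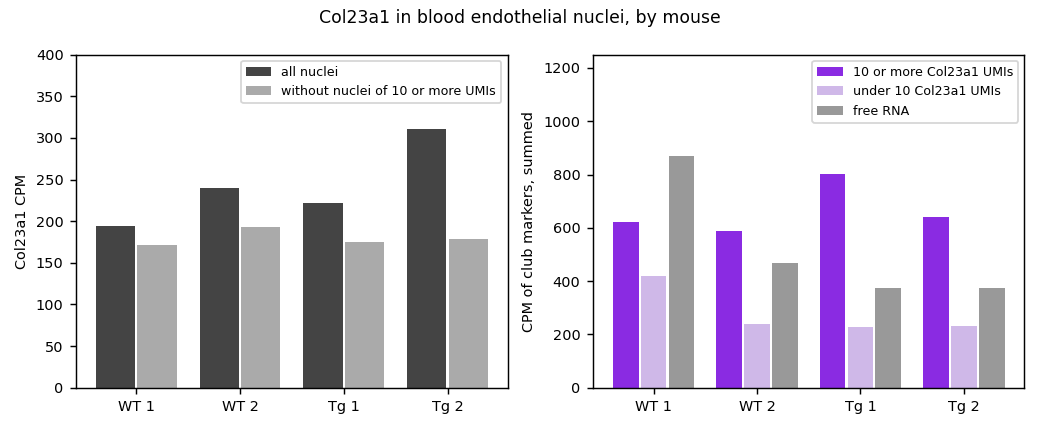
Left, Col23a1 CPM in blood EC nuclei of each mouse, for all nuclei and without those holding at least 10 Col23a1 UMIs. Right, summed CPM of the club markers in nuclei with at least 10 Col23a1 UMIs (588 to 800), in the other nuclei (227 to 419) and in free RNA (374 to 869).

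Relatives of the 5 genes and their chromosomal neighbours were tested by genotype. Of all genes, edgeR called 7.91% in blood ECs, 4.04% in lymphatic ECs, 4.55% in pericytes, 7.85% in fibroblasts and 7.63% in mesothelial nuclei. The share was 7.29% in alveolar type 1, 12.3% in alveolar type 2, 2.9% in club-like and 3.42% in ciliated nuclei. It was 8.44% in alveolar macrophages, 4.1% in monocytes and interstitial macrophages, 5.63% in dendritic cells, 4.38% in T and NK cells and 4.02% in B cells. Among the relatives, edgeR called 0 of 82 tests of sodium-proton exchangers (10 at an unadjusted p under 0.05), 0 of 7 of membrane-spanning collagens (0 unadjusted) and 0 of 16 of calsyntenins (0 unadjusted), and DESeq2 called 0 in each. Of 19 tests of the Tmem132 family 1 was called: Tmem132c was lower in the free RNA of Tg (-1.66 ± 0.36, edgeR adjusted p = 0.0245). Of 34 tests of KCNQ channels and KCNE subunits 3 were called, and 4 in DESeq2. Kcnq1, an epithelial and cardiac relative of Kcnq5, was lower in Tg in mesothelial nuclei, with 73.8 and 64.9 CPM in WT and 24.2 and 31.3 in Tg (-1.25 ± 0.24, edgeR adjusted p = 0.0137). It was also lower in free RNA, with 107 and 70.0 CPM in WT and 20.1 and 31.8 in Tg (-1.58 ± 0.30, edgeR adjusted p = 0.0204), so the mesothelial level was below free RNA in 3 of 4 mice, and the part of free RNA in it was not tested. Kcne2, a channel subunit, was higher in free RNA (1.39 ± 0.34, edgeR adjusted p = 0.0325).

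Over all genes, classes and free RNA together, 6.35% of tests were higher in Tg and 1.82% lower. Among genes that start within 1 Mb, 3 of 62 tests beside Tmem132d were called, all higher in Tg, and 2 of 46 beside Slc9a9, both for Pcolce2. Beside Col23a1, 12 of 306 were higher and 2 lower, beside Kcnq5 7 of 45 were higher, and beside Clstn2 15 of 97 were higher and 3 lower. The tests of 1 gene in several classes are not independent: the 7 beside Kcnq5 are 2 genes, the 18 beside Clstn2 are 9 and the 14 beside Col23a1 are 7. Free RNA, where 25.6% of all genes were called, gave 1, 7 and 5 of them. DESeq2 called 2 tests beside Tmem132d, 2 beside Slc9a9, 9 beside Col23a1, 8 beside Kcnq5 and 14 beside Clstn2. Gsta3, a glutathione transferase gene beside Kcnq5, rose in lymphatic ECs from 35.0 and 57.0 CPM to 182 and 134 (1.78 ± 0.33, edgeR adjusted p = 0.0217), in blood ECs from 54.0 and 89.1 to 168 and 135 (1.06 ± 0.26, edgeR adjusted p = 0.0477) and in free RNA from 90.9 and 138 to 301 and 215 (1.45 ± 0.36, edgeR adjusted p = 0.0336). The part of free RNA in the class values of Gsta3 was not tested. Phykpl, beside Col23a1, rose in lymphatic ECs from 15.9 and 12.7 CPM to 50.6 and 52.2 (1.91 ± 0.43, edgeR adjusted p = 0.0444). It was also called higher in blood ECs (1.30 ± 0.23), alveolar type 2 nuclei (1.31 ± 0.23), mesothelial nuclei (1.21 ± 0.29) and free RNA (1.07 ± 0.28), with edgeR adjusted p-values of 0.019, 0.0181, 0.0355 and 0.0368. These calls depended on single mice. Of the 14 calls of Tmem132c, Kcnq1, Kcne2, Pcolce2, Gsta3 and Phykpl over classes and free RNA, 13 were lost without the first Tg mouse, all but that of Kcnq1 in mesothelial nuclei, and none changed direction with any mouse left out. Without that mouse edgeR called 2 of 14039 genes in blood ECs (1670 at an unadjusted p under 0.05) and none in free RNA. Over the fits on 3 mice, Phykpl ran from 1.23 to 1.41 on the log2 scale in blood ECs and from 1.67 to 2.05 in lymphatic ECs, and Gsta3 from 0.77 to 1.41 in blood ECs.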

How the data were processed

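Single-nucleus RNA-Seq of 4 lungs was analysed from the UMI counts deposited by the authors for all barcodes, made with Cell Ranger 6.1.1 on mm10 per the submitters' processing notes, introns included. The authors' later steps (removal of poor nuclei, multiplets and ambient RNA) are not in these counts. The 5 genes and all lists were chosen with earlier results of these data known.

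Class calls used the Poisson excess of marker UMIs over free RNA (p under 1e-4). UMIs were summed per class and mouse, filtered with filterByExpr (minimum count 10), scaled by TMM and tested in edgeR 4.0.16 (R 4.3.3), two-sided, with DESeq2 1.42.0 as an alternative. SEs are the log2 change over the root of its F statistic. P-values rest on the spread between these mice, 2 a genotype, with the spread of each gene drawn toward the trend over all genes. The fits were also run on simulated counts with the same dispersion for every gene, no mouse effect and no free RNA mixed in. That run therefore does not cover these features of the data. Besides the 5 genes, the rule named relatives and neighbours past the threshold (at most 4 a list, of which several are given as counts), the 3 genes most alike in log2(CPM + 10) among those with at least 500 UMIs, and the nearest in rank. Phykpl and Gsta3 were picked among the neighbours after their values were seen, and the other called neighbours beside Tmem132d, Col23a1, Kcnq5 and Clstn2 are given as counts. Spans came from GENCODE for 32158 of 32285 identifiers. Alternatives were other normalizations, filters, UMI minimums, class cuts, empty droplets and mice left out. The club-like class, droplets above 800 and under 1500 UMIs and the limit of 10 UMIs a nucleus were added after the data were seen.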

Additional observations from a re-analysis of the deposited data

Results flagged for a closer look

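Barcodes of at least 1500 UMIs without a planned class entered no comparison, apart from 80 to 363 a mouse among them that were later called club-like, and all 5 genes were above free RNA in them in each of the 4 mice. The mean log2 of their CPM over free RNA was 1.66 for Col23a1, 0.97 for Tmem132d, 0.84 for Slc9a9, 0.59 for Clstn2 and 0.41 for Kcnq5. The genotypes did not overlap there for any of the 5: Tmem132d, Slc9a9 and Kcnq5 were lower in Tg, and Clstn2 and Col23a1 higher, the last with 484 and 461 CPM in WT and 746 and 608 in Tg. Of the 15180 genes tested in free RNA, 31.6% were lower in Tg without overlap in these barcodes and 32.6% higher. Without the club-like nuclei the means were 1.63, 0.99, 0.84, 0.61 and 0.43 in the same order, all 4 mice stayed above free RNA for each gene, and Col23a1 had 482 and 453 CPM in WT and 737 and 583 in Tg. These means come mostly from Tg. The log2 values in WT were 0.85 and 0.47 for Col23a1, 0.28 and 0.45 for Tmem132d and 0.09 and 0.16 for Slc9a9. For Clstn2 they were 0.05 and 0.11, and for Kcnq5 0.07 and 0.07. In Tg the values were 3.11 and 2.08, 1.70 and 1.53, 1.96 and 1.13, 1.30 and 0.95, and 1.03 and 0.54, in the same order of genes. The barcodes without a planned class had median depths of 1770 to 2291 UMIs. Whether they hold nuclei, and of which cells, was not tested.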

How the results depend on the processing

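Of the pairs of gene and class, 26 were above free RNA as reported, 15 with droplets of at least 100 and under 300 UMIs as free RNA (95 to 113 droplets a mouse), and 17 to 37 with a mouse left out, the 17 without the second Tg mouse. No called pair changed direction under any alternative run. Genotype calls summed over 14 classes, 9690 as reported, were 21663 with no filter but 1 UMI, 993 after free RNA was subtracted, 18533 with the replicate block, and 2103 to 19502 with a mouse left out, the extremes without the first Tg and the second WT mouse. The labels do not say that replicate numbers pair animals, and deviations of same-numbered mice correlated at -0.04 to 0.29 over classes and free RNA. In free RNA edgeR called 3883 genes by genotype, 4677 with the replicate block, and 0 to 4797 with a mouse left out: 0 without the first Tg mouse (3228 at an unadjusted p under 0.05) and 814 without the second. Not thinned, the mean share of nuclei with a UMI was 88.7% for Tmem132d in alveolar type 2 nuclei (thinned 71.9%), 89.5% for Slc9a9 in monocytes and interstitial macrophages (75.2%), 82.0% for Col23a1 in club-like nuclei (60.8%) and 75.7% for Clstn2 in pericytes (61.8%), since thinning removes UMIs. The cause of the other shifts was not tested.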
